A study of Homo sapiens with 6 samples.

Results

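A set of 10 genes of glucose uptake and glycolysis was followed in MDA-MB-231, a triple-negative (without hormone receptors and HER2 amplification) breast cancer line, after treatment with guadecitabine (SGI-110), a DNA methyltransferase inhibitor that releases decitabine. The genes were SLC2A1, HK1, HK2, GPI, PFKP, ALDOA, GAPDH, PGK1, ENO1 and LDHA, chosen by their names as 1 step each of the route from glucose to lactate, with 2 hexokinases. All 10 were found among the 17100 transcripts of the deposited table, and 10 of 10 passed the filter on low counts that 13322 genes passed. Sequencing covered 3 vehicle libraries and 3 guadecitabine libraries, the latter from cells that received 1 µM of the drug over 96 h and then none for 24 h. Both groups came from the same cell line with no other agent, and neither the vehicle nor the glucose content of the medium was given in the sources used here.

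Glycolysis breaks glucose down to pyruvate in the cytosol, and many tumor cells turn much of that pyruvate into lactate even where oxygen is present. Glucose enters through facilitative transporters of the SLC2A family and is trapped by hexokinase, and phosphofructokinase makes the step that commits it to the pathway. Many of the genes are known targets of the hypoxia-inducible factor HIF and of MYC, and triple-negative breast cancer lines such as MDA-MB-231 are known for a high glycolytic rate.

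Of the 10 genes, 9 were lower after guadecitabine and 0 were higher at an adjusted p of 0.05 (edgeR, quasi-likelihood, Benjamini-Hochberg over all 13322 genes). The 10 genes were chosen with earlier results of these data known. Among all genes tested, 18.4% were lower and 19.3% were higher by the same threshold. By mean vehicle CPM, HK2 lay above 77.0% of all genes tested and ENO1 above 99.98%, with the other members between them. The shares called among genes of like abundance were not counted. The median log2 fold change of the 10 genes was -0.80, against 0.02 over all genes tested. With all libraries the largest differences were those of ENO1, SLC2A1 and LDHA, at log2 fold changes of -1.25, -1.15 and -1.03, and HK1 was the only one of the 10 that did not pass the threshold. In each of the 9 genes the 3 guadecitabine libraries lay under the 3 vehicle libraries, which was the case in 25% of all genes tested. An exact permutation test of 3 against 3 libraries, two-sided, gave p = 0.1 for each of the 9 genes, the smallest that this design allows.

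The vehicle libraries held 17602570 to 22277442 counts and the guadecitabine libraries 8792127 to 21410849, guadecitabine replicate 2 being the shallowest. Vehicle replicate 3 stood apart from the other libraries, since 20 of its transcripts had no count, compared with 1593 to 2517 in the others. Its median was 7.10 counts per kb over 533 transcripts with at most 1 count in each of vehicle replicates 1 and 2 and at least 11 counts over the guadecitabine libraries. Over the same transcripts the guadecitabine medians were 6.50, 2.95 and 5.35 counts per kb in replicates 1, 2 and 3. Without vehicle replicate 3, 9 of the 10 genes were lower, as with all libraries. Of 8 markers by which this line is known, for their presence or absence, 6 were tested, and VIM and CD44 were higher and CAV1 and ERBB2 lower, at log2 fold changes of 0.33, 1.18, -1.19 and -0.74 (adjusted p = 0.0258, 2.66e-05, 0.000112 and 0.00122, edgeR). VIM had a mean of 3140.0 CPM (counts per 1000000 counts, scaled by TMM) in vehicle and 3944 CPM after guadecitabine, while PGR and ESR1 had at most 1 count in each library but vehicle replicate 3. Of 11 markers of blood, endothelial, fat, muscle and liver cells, 9 were in the table, with a summed level of 90.6 to 113 CPM in vehicle and 57.6 to 78.1 after guadecitabine. Without the muscle actin ACTA1, whose sequence is close to that of ACTB (left out after its values were seen), the sums were 4.25 to 10.5 and 6.93 to 8.45. ADIPOQ had 0 counts in each library but vehicle replicate 3. Other markers were counted in every library, with 39 to 104 counts for PECAM1 and 13 to 28 for LYZ. CKM had 0, 0 and 14 counts in vehicle replicates 1, 2 and 3 and 15, 7 and 16 in guadecitabine replicates 1, 2 and 3. The part of these markers in the results was not tested. Fewer cells of a type and less RNA per cell cannot be told apart in such bulk libraries, and all values are relative to the other genes of the library.

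Hypoxia-responsive promoters of this pathway carry the letters ACGTG, a form of the core of the known HIF site. The 300 bases around each RefSeq start site were therefore searched for these letters on either strand. The window ran from 250 bases before to 50 bases after the start (RefSeq, GRCh38.p14). The letters were present at 10 of the 23 start sites listed for the 10 genes and at 21.4% of all 35116 start sites. At least 1 start site had them in 7 of the 10 genes, whereas SLC2A1, HK1 and ENO1 had no match in these windows. Other forms of the HIF core were not searched in any of the genes. The matching share per gene over all genes was not counted, and the number of start sites differed between genes. The palindrome CACGTG, the known site of MYC, contains ACGTG on both strands and was present at 4 of the 23 start sites and at 7.26% of all. For each of the 7 genes the nearest match that lay wholly before a start site is shown. For PGK1, which had 3 matches, a match that did not lie wholly before the start site is not shown. Stretches run from 5′ to 3′ on the strand of the gene, with the matching letters in capitals (CACGT is ACGTG on the opposite strand). The positions were found by matching the sequence to GRCh37, the build of the files.
HK2, chr2:75061194-75061222, plus strand: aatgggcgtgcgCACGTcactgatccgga
GPI, chr19:34855723-34855751, plus strand: acactgcctgtaACGTGgaaggtgttcga
PFKP, chr10:3111230-3111258, plus strand: ccacgagcgcctACGTGatgcccggcccg
ALDOA, chr16:30075695-30075723, plus strand: ggcagggaggccACGTGatccgagtcccc
GAPDH, chr12:6644338-6644366, plus strand: ctctgcggggtcACGTGtcgcagaggagc
PGK1, chrX:77359550-77359578, plus strand: aaacggaagccgCACGTctcactagtacc
LDHA, chr11:18416025-18416053, plus strand: cgtgggttcccgCACGTccgccggccccc

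In the ALDOA and GAPDH stretches the capitals belong to a CACGTG. Each match also holds a CpG, the dinucleotide whose methylation guadecitabine lowers, and the 23 windows held a median of 29 CpGs against 14 over all start sites. The shares of start sites with ACGTG or CACGTG were not compared between windows of like CpG content. Whether HIF or MYC was bound, or any of these CpGs methylated, was not measured in these libraries, and the letters alone mark no site.

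SLC2A1 encodes GLUT1, the transporter through which most cells take up glucose, and lies on chromosome 1 from 43391046 to 43424847 on the minus strand (hg19). It had 773, 704 and 726 CPM in vehicle replicates 1, 2 and 3. After guadecitabine it had 299.9, 359 and 335 CPM in replicates 1, 2 and 3, so that the groups were far apart. The means were 734 ± 35.7 CPM and 331 ± 29.8 CPM (SD, n = 3), with a log2 fold change of -1.15 (SE 0.103, adjusted p = 4.71e-05 from edgeR), or 45.1% of the vehicle level. The neuronal-type transporter SLC2A3 (GLUT3) was much less abundant, with 46.1 to 48.8 CPM in vehicle and 22.0 to 24.7 CPM after guadecitabine. Its log2 fold change of -1.01 (SE 0.102, adjusted p = 9.07e-05, edgeR) was of a size like that of SLC2A1. In the opposite direction, SLC2A6, a transporter of lysosomal membranes, rose from 39.6 to 40.7 CPM in vehicle to 79.3, 116 and 98.3 CPM, with a log2 fold change of 1.28 (adjusted p = 0.000157, edgeR).

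**Figure D1:**
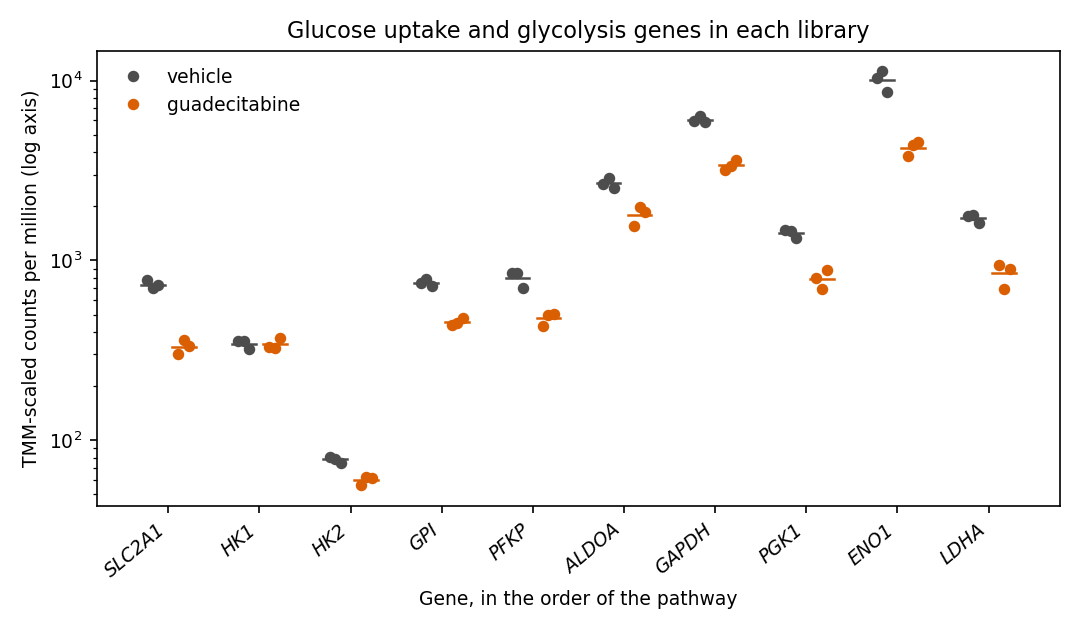
TMM-scaled CPM (log axis) of the 10 genes in each library, with 3 vehicle libraries (grey) and 3 guadecitabine libraries (orange) per gene and a line at each group mean. The guadecitabine points lie under the vehicle points in 9 genes and among them in HK1.

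The hexokinases, which phosphorylate glucose on entry, did not move alike. HK1, the form of most tissues, lies on chromosome 10 from 71029756 to 71161637 on the plus strand. It had 355, 355 and 322 CPM in the vehicle libraries and 332, 324 and 372 CPM in the guadecitabine libraries, in the order of the replicates, and the groups overlapped. Its log2 fold change was -0.01 with a 95% interval from -0.23 to 0.22 (adjusted p = 0.974, edgeR), so that a change of the size seen in SLC2A1 lay outside the interval. HK2, the insulin- and hypoxia-responsive form that many tumors raise, lies on chromosome 2 from 75059782 to 75120481 on the plus strand. It had 80.9, 78.7 and 75.0 CPM in vehicle and 56.2, 62.2 and 61.5 CPM after guadecitabine, with no overlap. The log2 fold change of HK2 was -0.38 (SE 0.0995, adjusted p = 0.0147, edgeR), the smallest of the 9. This call was lost when vehicle replicate 1, vehicle replicate 2 or guadecitabine replicate 3 was left out, with adjusted p of 0.0739, 0.0630 and 0.0574 (edgeR), while the log2 fold change stayed between -0.41 and -0.34.

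Per length of the counted exons, HK1 had 88.9 ± 4.82 CPM per kb in vehicle and HK2 had 11.0 ± 0.423 (SD, n = 3). HK2 made up 11.0% ± 0.231 of the HK1 and HK2 level per kb in vehicle and 8.74% ± 0.651 after guadecitabine (SD, n = 3), and the ranges did not overlap. The exons counted for HK1 belong to transcript NM_033498, which starts far upstream of the usual first exon, so that its length may not be that of the RNA in these cells. HKDC1, a hexokinase-like gene that is the direct neighbour of HK1, was scarce in vehicle, with 4.31, 5.07 and 5.09 CPM. It had 24.1, 22.8 and 25.3 CPM after guadecitabine, a log2 fold change of 2.32 (SE 0.136, adjusted p = 3.49e-06, edgeR) or 4.99-fold. Its share of the 3 hexokinases per kb rose from 1.30% ± 0.165 to 6.31% ± 0.200 (SD, n = 3), and no stretch of 50 bases in HK1 or HKDC1 had an exact copy elsewhere in GRCh37.

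**Figure D2:**
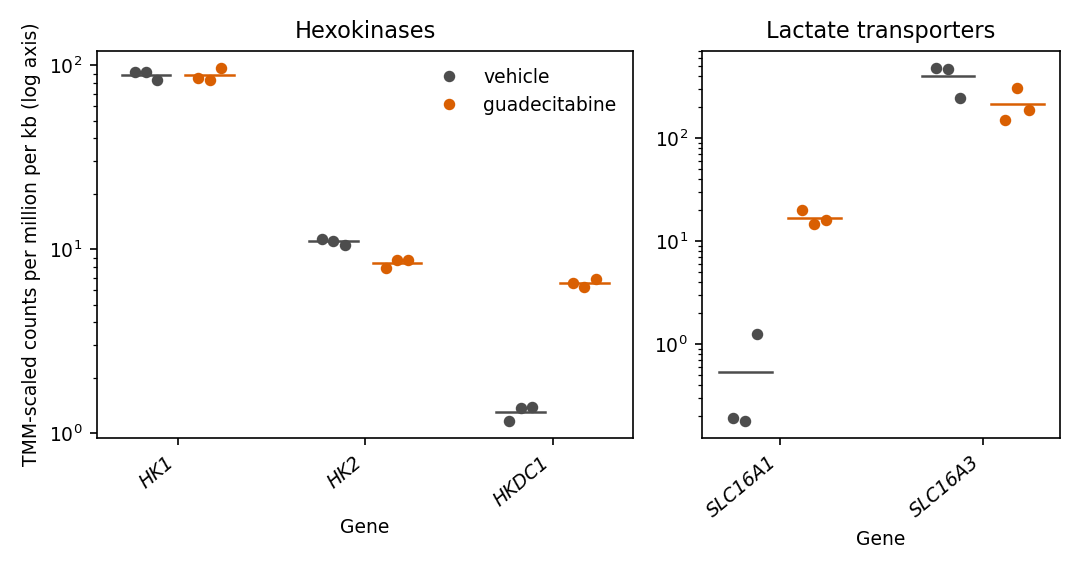
TMM-scaled CPM per kb of counted exon (log axes) of 3 hexokinases (left) and 2 lactate transporters (right) in each vehicle (grey) and guadecitabine (orange) library, with lines at the group means. HK1 overlaps between groups, HKDC1 and SLC16A1 lie higher after guadecitabine, and the SLC16A3 points of the groups overlap.

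GPI, which turns glucose 6-phosphate into fructose 6-phosphate, lies on chromosome 19 from 34855645 to 34893318 on the plus strand. It had 744, 788 and 721 CPM in vehicle and 435, 447 and 476 CPM after guadecitabine. The drop was to 60.3% of the vehicle level, with a log2 fold change of -0.73 (SE 0.0923, adjusted p = 0.000335, edgeR). PFKP, the platelet-type phosphofructokinase of the committed step, lies on chromosome 10 from 3109712 to 3178997 on the plus strand. Its values were 850.1, 855 and 702 CPM in vehicle and 434, 497 and 504 CPM after guadecitabine. PFKP had a log2 fold change of -0.75 (SE 0.114, adjusted p = 0.00101, edgeR), and vehicle replicate 3 was the lowest of its group.

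The liver-type PFKL and the muscle-type PFKM, which form mixed tetramers with PFKP, were lower too. PFKL went from 404 ± 77.0 to 223 ± 31.7 CPM and PFKM from 75.4 ± 12.4 to 47.1 ± 4.39 CPM (SD, n = 3), with log2 fold changes of -0.86 and -0.68 (adjusted p = 0.00316 and 0.00554, edgeR). PFKP made up 65.5% ± 1.95 of the 3 phosphofructokinases per kb in vehicle and 66.7% ± 1.28 after guadecitabine (SD, n = 3), with overlapping ranges. The enzymes that set fructose 2,6-bisphosphate, the activator of phosphofructokinase, did not change alike. PFKFB4, which makes and degrades it, had 53.6 to 60.5 CPM in vehicle and 13.8 to 17.3 CPM after guadecitabine, a log2 fold change of -1.87 (adjusted p = 6.91e-06, edgeR). C12orf5 (TIGAR), a p53 target that degrades it, rose from 11.0 to 12.8 CPM in vehicle to 25.9 to 31.4 CPM, a log2 fold change of 1.25 (adjusted p = 8.62e-05, edgeR). PFKFB3 and PFKFB2, of the same family as PFKFB4 and not named by rank, did not pass the threshold. PFKFB3 was more abundant than PFKFB4 or C12orf5, with means of 82.1 CPM in vehicle and 80.9 CPM after guadecitabine. The log2 fold changes were -0.02 for PFKFB3 and 0.06 for PFKFB2 (adjusted p = 0.909 and 0.876, edgeR).

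ALDOA splits fructose 1,6-bisphosphate and lies on chromosome 16 from 30064411 to 30081741 on the plus strand. It had 2670.4, 2873 and 2526 CPM in vehicle and 1559, 1973 and 1858 CPM after guadecitabine, in separate ranges. The log2 fold change of ALDOA, -0.58 (SE 0.109, adjusted p = 0.00307, edgeR) was smaller in size than those of GAPDH, PGK1, ENO1, PKM and LDHA and close to that of PGAM1, at -0.61. ALDOC, the aldolase of brain, had 21.0 ± 0.730 CPM in vehicle and 14.2 ± 2.19 CPM after guadecitabine (SD, n = 3), a log2 fold change of -0.56 (adjusted p = 0.0112, edgeR). TPI1, which interconverts the triose phosphates made by aldolase, went from 1225 ± 63.5 to 729 ± 60.8 CPM (SD, n = 3), a log2 fold change of -0.75 (adjusted p = 0.00045, edgeR).

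GAPDH makes the first step that yields NADH and is widely used as a reference gene. It lies on chromosome 12 from 6643571 to 6647541 on the plus strand and was the second most abundant of the 10 genes per length in vehicle. Its level was 5922, 6332 and 5914 CPM in vehicle and 3169, 3333 and 3607 CPM after guadecitabine, and no guadecitabine library came near a vehicle library. The log2 fold change was -0.85 (SE 0.0862, adjusted p = 9.32e-05, edgeR), or 55.6% of the vehicle level. PGK1, the first enzyme of the pathway to make ATP, is an X-linked gene (chromosome X, 77359666 to 77382324, plus strand). It had 1472, 1453 and 1335 CPM in vehicle and 798, 689 and 884 CPM after guadecitabine. For PGK1 the log2 fold change was -0.85 (SE 0.111, adjusted p = 0.000429, edgeR), nearly the same as that of GAPDH.

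PGAM1, the next enzyme, moves the phosphate of 3-phosphoglycerate and had 324 to 337 CPM in vehicle and 193 to 243 CPM after guadecitabine, a log2 fold change of -0.61 (adjusted p = 0.00242, edgeR). Its reads are uncertain, since 90.7% of its stretches of 50 bases had an exact copy elsewhere in GRCh37. ENO1, which makes phosphoenolpyruvate, lies on chromosome 1 from 8921059 to 8939151 on the minus strand and was the most abundant of the 10 genes per length in vehicle. It had 10356, 11229.8 and 8613 CPM in vehicle replicates 1, 2 and 3. After guadecitabine it had 3814, 4370.3 and 4529 CPM, less than any vehicle library by a wide gap. The log2 fold change was -1.25 (SE 0.117, adjusted p = 6.04e-05, edgeR), or 42.1% of the vehicle level. It was the largest difference of the 10 genes with all libraries, but without vehicle replicate 2 ENO1 was at -1.16 and SLC2A1 at -1.18.

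The neuronal enolase ENO2 changed less, from 216 ± 22.7 to 164 ± 13.5 CPM (SD, n = 3), with a log2 fold change of -0.40 (SE 0.116, adjusted p = 0.0245, edgeR). This call was lost without vehicle replicate 1 or 2 or guadecitabine replicate 1 or 3, with adjusted p from 0.0603 to 0.114, and without filtering, with adjusted p = 0.0704 (edgeR). ENO1 made up 98.2% ± 0.132 of the ENO1 and ENO2 level per kb in vehicle and 96.8% ± 0.0322 after guadecitabine (SD, n = 3), without overlap. PKM, the pyruvate kinase of tumor cells, which makes pyruvate and ATP, had 6049, 5957 and 5489 CPM in vehicle and 3022, 3476 and 3526 CPM after guadecitabine. The difference in PKM was a log2 fold change of -0.80 (SE 0.0932, adjusted p = 0.000201, edgeR).

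LDHA, which turns pyruvate into lactate and gives back NAD, lies on chromosome 11 from 18415936 to 18429765 on the plus strand. It had 1764, 1795 and 1622 CPM in vehicle and 947, 697 and 899.6 CPM after guadecitabine, with guadecitabine replicate 2 the lowest. The log2 fold change was -1.03 (SE 0.125, adjusted p = 0.000275, edgeR), or 49.1% of the vehicle level. LDHB, the heart form that favours the reverse reaction, went from 472 ± 50.6 to 349 ± 22.9 CPM (SD, n = 3), with a log2 fold change of -0.44 (SE 0.111, adjusted p = 0.0136, edgeR). The LDHB call was lost without vehicle replicate 1 or 2 or guadecitabine replicate 3, with adjusted p from 0.0530 to 0.0755 (edgeR). The share of LDHA in the LDHA and LDHB level per kb was 71.6%, 70.0% and 72.4% in vehicle and 63.1%, 58.4% and 64.6% after guadecitabine, so that the ranges were apart.

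**Figure D3:**
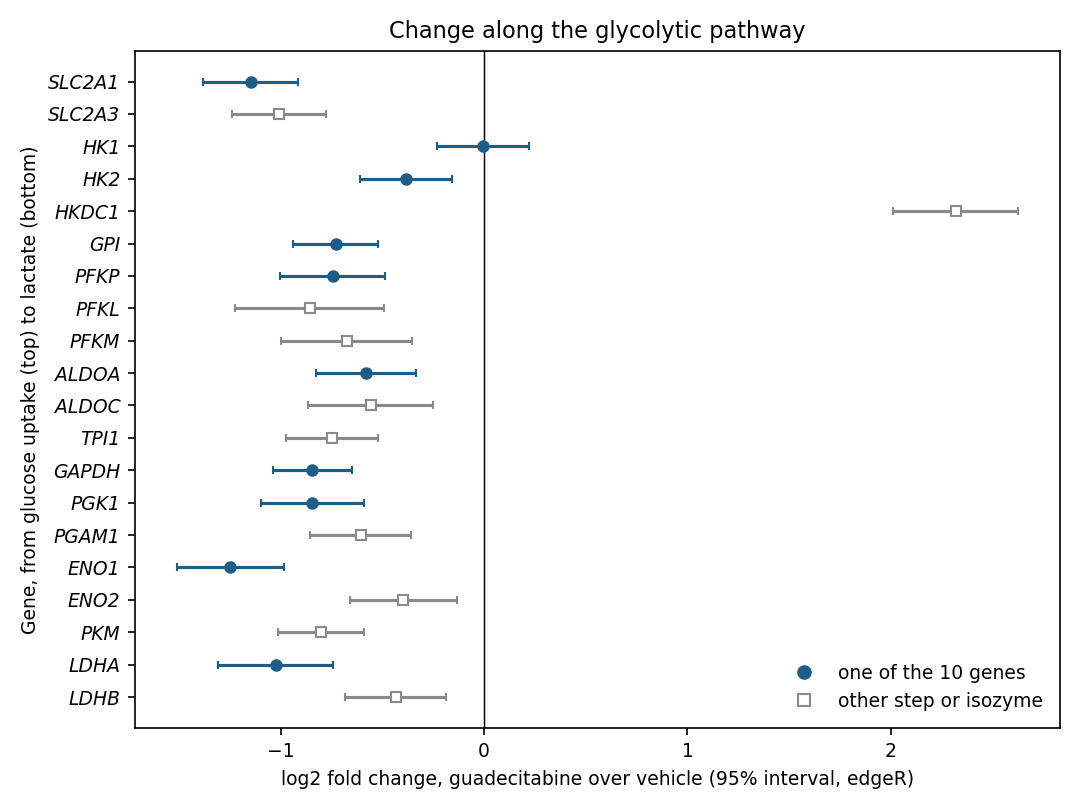
Log2 fold change of guadecitabine over vehicle (x axis, points) with 95% intervals from edgeR for the 10 genes (filled circles) and 10 other steps and isozymes (open squares), ordered from glucose uptake at the top to lactate at the bottom. The intervals lie under 0 except for HK1, whose interval spans 0, and HKDC1, which lies at 2.32.

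Together the 10 genes took 2.43% ± 0.106 of all counts in the vehicle libraries and 1.28% ± 0.0650 in the guadecitabine libraries (SD, n = 3). The share was 2.39%, 2.55% and 2.35% in vehicle replicates 1, 2 and 3 and 1.22%, 1.28% and 1.35% in guadecitabine replicates 1, 2 and 3. Without GAPDH the difference between the groups was -0.89 percentage points, against -1.15 with it. In vehicle the order of levels per kb was ENO1, GAPDH, ALDOA, LDHA, PGK1, PFKP, SLC2A1, GPI, HK1 and HK2, from 4884 ± 646 to 11.0 ± 0.423 CPM per kb (SD, n = 3). The ranges of ENO1 and GAPDH overlapped, and those of all other neighbours were apart. After guadecitabine GAPDH came before ENO1, at 2405 ± 158 and 2056 ± 182 CPM per kb (SD, n = 3), with ranges that did not overlap. SLC2A1 fell to 93.5 ± 8.40 CPM per kb, in the range of its neighbours GPI at 104 ± 4.91 and HK1 at 88.5 ± 6.75, and LDHA and PGK1 also overlapped.

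**Figure D4:**
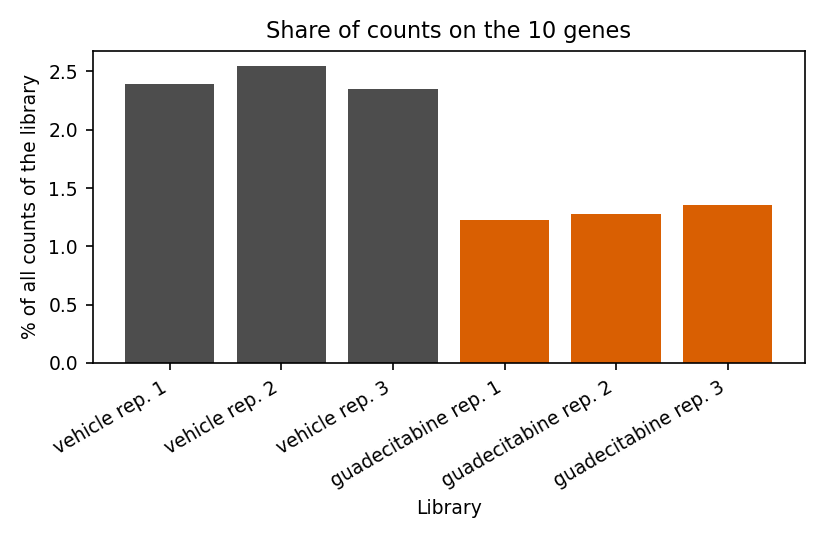
Percent of all counts of a library that fell on the 10 genes (y axis, bars from 0) in each of the 3 vehicle (grey) and 3 guadecitabine (orange) libraries. The vehicle bars stand between 2.35% and 2.55% and the guadecitabine bars between 1.22% and 1.35%.

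Some of these genes share stretches of sequence with other places in the genome, and how reads with several matches were treated is not given in the sources used here. Exact copies elsewhere in GRCh37 were found for 25.6% of the stretches of 50 bases in GAPDH, 16.7% in LDHA, 15.5% in HK2, 9.62% in GPI and 8.34% in PGK1. The share was 3.46% in ENO1 and 0.691% in ALDOA. SLC2A1, HK1 and PFKP had 0% of such stretches. The stretches were cut from the GENCODE transcript chosen for each gene, not from the counted exons. In PGK1 these were 4812 and 2423 bp long. The part of such copies in the results was not tested. GENCODE places other genes over part of the exons, with 89.8% of the exon bases of ALDOA in another protein-coding gene of the same strand and 32.8% of those of GAPDH under an antisense RNA. Reads of ALDOA and of the gene on its strand cannot be told apart there. Whether the counting used strand was not given, so neither can those of GAPDH and its antisense RNA. Smaller overlaps with the same limits were in GPI (13.1%, a protein-coding gene of its strand), SLC2A1 (14.7%, a noncoding RNA of the opposite strand) and PFKP (4.57%, a noncoding RNA of its strand).

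The other genes of the pathway were read from a list of 34 further steps, isozymes and regulators of flux, of which 27 were tested. Of these 14 were lower and 6 were higher (edgeR, adjusted p of 0.05), with a median log2 fold change of -0.56 and single values from -1.87 to 2.32. Among all genes tested 18.4% were lower and 19.3% higher. The 14 include PGAM1 and PGAM4, with 90.7% and 42.7% of their stretches of 50 bases copied elsewhere, and TPI1, with 42.6%, so that their counts are uncertain. Besides HKDC1, C12orf5 and SLC2A6, the higher genes were BPGM, ADPGK and ENO3, named here after their values were seen. BPGM, which makes 2,3-bisphosphoglycerate on a side branch, had 14.7 to 18.2 CPM in vehicle and 33.2 to 38.9 CPM after guadecitabine, a log2 fold change of 1.10 (adjusted p = 0.000172, edgeR). Each of these 6 had a mean of at most 97.7 CPM in the guadecitabine libraries, far under that of PKM or TPI1.

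**Figure D5:**
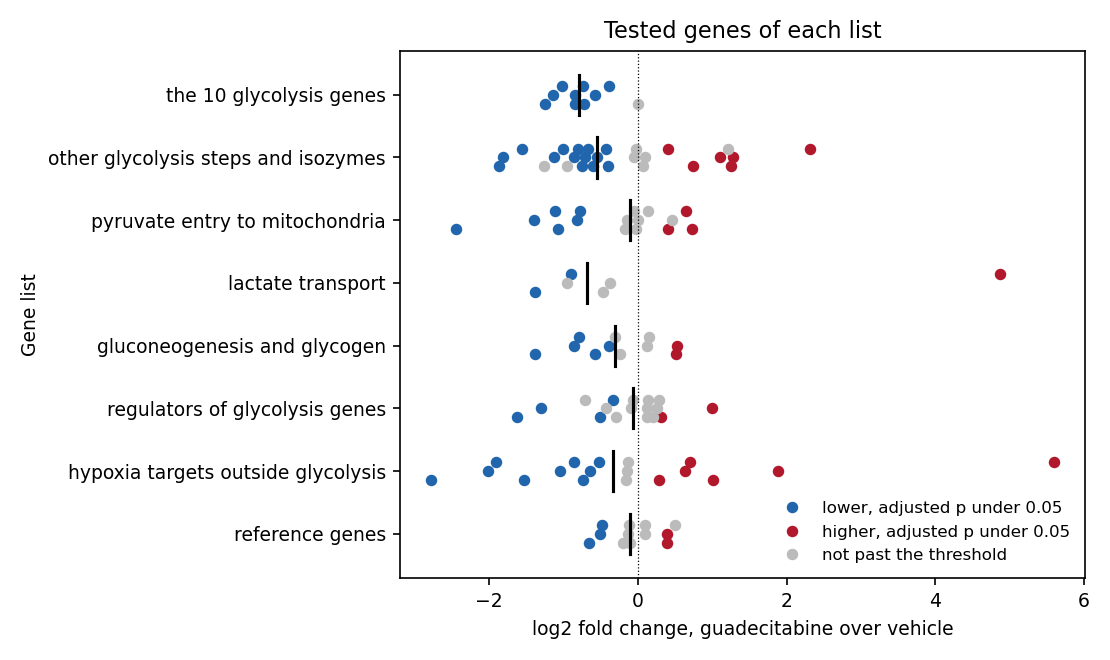
Log2 fold change of guadecitabine over vehicle (x axis) of each tested gene in 8 lists (rows), coloured by whether it was lower, higher or not past an adjusted p of 0.05 in edgeR, with a black line at the median of the list. The median of the 10 glycolysis genes lies at -0.80, and SLC16A1 at 4.87 and STC2 at 5.60 are the points farthest to the right. STC2 had 12 and 10 counts in vehicle replicates 1 and 2 and 204 in replicate 3, the library that stood apart.

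Of 7 genes of lactate transport, 6 were tested, and 1 was higher and 2 were lower (edgeR, adjusted p of 0.05). The shares over all genes tested were 19.3% higher and 18.4% lower. SLC16A1 encodes MCT1, which carries lactate and pyruvate in either direction, and had 14 and 12 counts in vehicle replicates 1 and 2 and 114 in replicate 3, the library with counts on silent genes. After guadecitabine it had 1734, 509 and 1110 counts, or 78.4, 57.8 and 62.6 CPM against 0.744, 0.707 and 4.92 CPM in vehicle. Its log2 fold change was 4.87 (SE 0.533, adjusted p = 0.000145, edgeR), and 6.50 without vehicle replicate 3. SLC16A3 encodes MCT4, the lactate exporter of glycolytic cells, and had 989, 979 and 512 CPM in vehicle and 311, 632 and 389.9 CPM after guadecitabine. The groups overlapped, with a log2 fold change of -0.90 (SE 0.299, adjusted p = 0.0409, edgeR). The SLC16A3 call did not hold without filtering (adjusted p = 0.0536, edgeR) or in DESeq2 (adjusted p = 0.0902), and was lost without vehicle replicate 1 or 2 or guadecitabine replicate 1 or 3, with adjusted p from 0.116 to 0.156 (edgeR). SLC16A1 made up 0.0399%, 0.0383% and 0.506% of the SLC16A1 and SLC16A3 level per kb in vehicle replicates 1, 2 and 3, the last being the library with counts on silent genes. After guadecitabine its share was 11.8%, 4.63% and 7.83%. SLC16A7 (MCT2) was low, at 6.81 to 9.31 CPM in vehicle and 2.50 to 4.07 CPM after guadecitabine, with a log2 fold change of -1.39 (adjusted p = 0.00252, edgeR).

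Of 16 genes for the entry of pyruvate into mitochondria, 16 were tested, and 3 were higher and 6 lower (edgeR), with a median log2 fold change of -0.10. By the same threshold 19.3% of all genes tested were higher and 18.4% lower. Pyruvate carboxylase, PC, which makes oxaloacetate from pyruvate, had 242 ± 27.5 CPM in vehicle and 91.7 ± 7.44 CPM after guadecitabine (SD, n = 3), a log2 fold change of -1.40 (adjusted p = 3.76e-05, edgeR). PDK2 and PDK3, kinases that switch pyruvate dehydrogenase off, had log2 fold changes of -1.12 and -1.07 (adjusted p = 6.62e-05 and 0.000321, edgeR). PDK2 lay between 70.7 and 71.1 CPM in vehicle and between 29.9 and 36.0 CPM after guadecitabine.

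Of 17 genes of gluconeogenesis and glycogen, 11 were tested, and 2 were higher and 5 lower (edgeR). Beside these counts, 19.3% of all genes tested were higher and 18.4% lower. FBP1, which runs the phosphofructokinase step backwards, had 91.7, 88.4 and 89.0 CPM in vehicle and 34.0, 32.8 and 35.8 CPM after guadecitabine, a log2 fold change of -1.39 (SE 0.0978, adjusted p = 1.1e-05, edgeR). PGM1, which links glucose 6-phosphate to glycogen, and the brain glycogen phosphorylase PYGB had log2 fold changes of -0.86 and -0.80 (adjusted p = 0.000337 and 0.000957, edgeR). Of the tested genes of the reverse route in this list, FBP1 was lower, while PCK2 and G6PC3 did not pass the threshold. PCK2 and G6PC3 had log2 fold changes of 0.15 and -0.25 (adjusted p = 0.435 and 0.276, edgeR).

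Of 17 regulators of glycolysis genes, 17 were tested, and 2 were higher and 4 lower (edgeR), with a median log2 fold change of -0.06. Over all genes tested 19.3% were higher and 18.4% lower, and with the replicate number as a block 1 regulator was higher and 2 were lower. EGLN3, an oxygen sensor that is itself a HIF target, had 23.8 ± 1.30 CPM in vehicle and 9.56 ± 1.17 CPM after guadecitabine (SD, n = 3), a log2 fold change of -1.31 (adjusted p = 8.86e-05, edgeR). PPARGC1A, a coactivator of mitochondrial genes, and ARRDC4, a sugar-responsive arrestin, were rare and had log2 fold changes of -1.63 and 1.00 (adjusted p = 0.00897 and 0.0148, edgeR). The ARRDC4 call was lost without vehicle replicate 1 or 2 or guadecitabine replicate 3, with adjusted p from 0.0509 to 0.0704 (edgeR), and 0 regulators were then higher. HIF1A and MYC, given here as the factors known for this pathway and not by rank, did not pass the threshold. HIF1A had 229.8, 233 and 238 CPM in vehicle and 224, 120.1 and 177 CPM after guadecitabine, with a log2 fold change of -0.43 and a 95% interval from -0.86 to 0.01 (adjusted p = 0.110, edgeR). MYC had a log2 fold change of -0.10 with an interval from -0.32 to 0.12 (adjusted p = 0.465, edgeR).

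Of 18 hypoxia targets outside glycolysis, 18 were tested, and 9 were lower and 6 higher (edgeR), with a median log2 fold change of -0.34. All genes tested were lower in 18.4% and higher in 19.3% of cases. NDRG1, a stress-induced gene, had 772, 762 and 701 CPM in vehicle and 176, 183 and 191 CPM after guadecitabine, a log2 fold change of -2.02 (SE 0.0969, adjusted p = 1.16e-06, edgeR). DDIT4, an inhibitor of mTOR signalling, had 336, 296 and 229 CPM in vehicle and 36.5, 47.0 and 42.4 CPM after guadecitabine, a log2 fold change of -2.78 (adjusted p = 4.18e-06, edgeR). ADM, the vasodilator adrenomedullin, went the other way, from 22.0 ± 1.18 to 81.0 ± 6.32 CPM (SD, n = 3), a log2 fold change of 1.88 (adjusted p = 3.49e-06, edgeR). The list therefore did not move in 1 direction.

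Of 12 genes in common use as references for quantitative PCR, 12 were tested, and 3 were lower and 2 higher (edgeR), with a median log2 fold change of -0.11, beside 18.4% lower and 19.3% higher over all genes tested. ACTB had 10604 ± 183 CPM in vehicle and 7609 ± 631 CPM after guadecitabine (SD, n = 3), a log2 fold change of -0.48 (adjusted p = 0.00227, edgeR). GUSB and B2M had log2 fold changes of -0.65 and 0.40 (adjusted p = 0.00154 and 0.00596, edgeR). The value of GAPDH, -0.85, was outside the range of these 12 genes, from -0.65 to 0.50.

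Outside these lists, PMEPA1 and NGEF had the profiles most like that of SLC2A1, the most significant of the 10 genes, with Pearson's r of 0.9998 and 0.9992 of log2 CPM over the 6 libraries. Most of such a value is the gap between the groups, and log2 fold changes were -1.01 for PMEPA1 and -1.08 for NGEF. It is a description of 6 libraries that share 1 contrast.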

How the data were processed

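RNA sequencing libraries from independent experiments, 3 with vehicle and 3 with guadecitabine, were grouped by their labels. The authors aligned reads to hg19 with STAR 2.3.1z, counted tags in exons with iRNA-seq and deposited raw counts per RefSeq transcript with the exon length in bp. The deposited table also holds regularized log2 values and the authors' DESeq2 comparison (fold changes, their errors and p-values), which were not used. The test was that of edgeR 4.0.16 under R 4.3.3 (TMM, filterByExpr with a minimum count of 10, quasi-likelihood test, Benjamini-Hochberg over 13322 genes, threshold 0.05). Standard errors and 95% intervals came from the F statistic. CPM used TMM-scaled totals of the tested genes, and CPM per kb used the deposited exon length. Totals are in the report, and precision covers counting and replicate error together. On simulated counts of 13322 genes, edgeR recovered 75 of 100 genes changed by 1 and 87 of 100 changed by 2 on the log2 scale, with 6 false calls. Far fewer genes were changed there than were called in the data, and no simulated library stood apart as vehicle replicate 3 did. The 6 false calls are therefore not an error rate of this comparison.

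The genes named are the 10 glycolysis genes, 10 steps and isozymes beside them, the 3 most significant genes of each further list, and the 2 genes most like SLC2A1. The 10 genes and the lists were chosen with earlier results of these data known. No library pair held identical counts (0 pairs). Alternatives were the replicate number as a block, DESeq2 1.42.0, its size factors, library totals, other filters and each library left out. Start sites came from RefSeq, gene models from GENCODE release 44 on GRCh37, and stretches were counted with Python 3.11.15.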

Additional observations from a re-analysis of the deposited data

How the results depend on the processing

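Of the 10 glycolysis genes, 9 were lower under each alternative that kept all libraries, and 8 or 9 were lower with each library left out, while 0 were higher under any. Library totals only and no filter turned the log2 fold change of HK1, not called, to 0.030 and 0.011, and leaving out libraries moved it between -0.074 and 0.036. With libraries left out, HK2 ranged from -0.41 to -0.34 and lost its call without vehicle replicate 1 or 2 or guadecitabine replicate 3. The difference in the summed share of counts was -0.89 percentage points without GAPDH. Regulators went from 2 higher and 4 lower to 1 and 2 with the replicate block, to 1 higher with the size factors of DESeq2 or no filter, and to 2 lower with library totals. Lower lactate transport genes went from 2 to 1 in DESeq2 and without the filter. With libraries left out, regulators ranged from 0 to 2 higher and from 2 to 6 lower, lactate transport from 1 to 3 lower, gluconeogenesis and glycogen from 1 to 2 higher, and reference genes from 1 to 3 higher. All genes called ranged from 1706 to 3002 higher and from 1629 to 2575 lower, with the lowest counts without guadecitabine replicate 3. The causes of these moves were not tested. Of 371 values of the 31 other named genes under alternatives, 354 kept their side of the threshold and direction, 17 in 4 genes (ENO2, LDHB, SLC16A3 and ARRDC4) lost the call and 0 reversed.

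Libraries that share a number had deviations from the group mean that correlated at -0.09, 0.09 and -0.05. Of the 6 libraries, 2 correlated best with their own number. With 3 libraries per group these values cannot decide whether the numbers pair the libraries by experiment. The main test did not pair them. With the replicate block 2424 genes were higher and 2230 lower, against 2576 and 2446 without it. The median of all log2 fold changes was 0.02, and -0.13 in DESeq2 and -0.11 without the filter, where more rare transcripts were included.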
